A study of Arabidopsis thaliana with 4 samples.

Results

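The ER body genes of Arabidopsis thaliana were followed in whole seedlings of atino80-5 and of wild type. The group holds 10 genes of the 23174 with values, given by locus as the known genes of the ER body. The rule uses no measured value, although the group was proposed with earlier results of these data known. They are the β-glucosidase genes PYK10 (also BGLU23, AT3G09260), BGLU18 (AT1G52400), BGLU19 (AT3G21370), BGLU21 (AT1G66270) and BGLU22 (AT1G66280), the genes NAI1 (AT2G22770) and NAI2 (AT3G15950), the lectin gene PBP1 (AT3G16420) and the membrane protein genes MEB1 (AT4G27860) and MEB2 (AT5G24290). All 10 had values in every library, and 9 of them reached the mean of 1 FPKM that was required for testing, while BGLU19 did not. FPKM counts fragments per kilobase of gene after scaling for library depth. The gene lengths behind the deposited values had a median of 1.19 times the annotated exon bases, so levels of different genes compare only roughly.

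atino80-5 carries a mutant allele of INO80, the ATPase of a chromatin remodelling complex that moves nucleosomes, and the nature of the lesion is not given in the sources used here. Seedlings of atino80-5 and of wild type were 14 days old, raised on agar medium at 22 °C with a daily cycle of 16 h of light, after more than 3 days of cold and darkness as seed. There were 2 polyA-selected, stranded RNA-seq libraries of atino80-5, with 13068214 and 14746250 reads, and 2 of wild type, with 13846046 and 18406709 reads. Separate cultures or plants for the 2 replicates are not stated in the labels, so the p-values speak only of the spread among these 4 libraries, and that spread could be purely technical. The INO80 gene (AT3G57300) stood at 2.72 and 3.13 FPKM in atino80-5, against 4.28 and 4.54 FPKM in wild type, a gap that was not called (log2 difference -0.46 with SE 0.15, limma adjusted p = 0.117). In whole seedlings, fewer cells of a type and less RNA per cell cannot be told apart.

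ER bodies are rod-shaped compartments of the endoplasmic reticulum (ER), found in Arabidopsis and its relatives in seedling epidermis and roots, and formed in rosette leaves after wounding. They store β-glucosidases, which meet their glucoside substrates when the cell is broken. NAI1 is a transcription factor of the basic helix-loop-helix class that is needed for ER bodies and for PYK10 expression, NAI2 is a protein of the ER body needed for its formation, and MEB1 and MEB2 sit in its membrane. PBP1, a jacalin-related lectin, binds PYK10 after tissue damage.

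An ER enzyme of this kind is kept in the compartment by the last residues of the protein, and the last codons of the 5 β-glucosidase genes are shown because they carry that retention signal. They are read from RefSeq's TAIR10.1 genome, 5′ to 3′ on the coding strand, with the 12 bases before the stop codon in capitals and the stop codon in lower case.
PYK10: AAGGATGAGCTTtaa
BGLU22: AAGGATGAGCTTtaa
BGLU21: AGGGATGAGCTTtaa
BGLU18: AGGGAAGAACTCtag
BGLU19: CACGAGGAGCTCtga
PYK10 and BGLU22 ended in the same letters. Over the whole coding sequence, BGLU21 and BGLU22, which lie close together on chromosome 1, were identical at 93.3% of 1575 aligned bases. PYK10, on chromosome 3, was 84.0% identical to BGLU21 and 83.7% to BGLU22. BGLU18 and BGLU19 were 74.1% identical to each other and between 70.0% and 70.7% identical to the other 3. The longest run of coding bases that BGLU21 and BGLU22 share without a difference was 80 bases, and it is shown because a read inside it cannot be given to either gene.
BGLU21 and BGLU22: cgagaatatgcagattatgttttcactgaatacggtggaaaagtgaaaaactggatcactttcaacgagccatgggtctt
Of all 50-base windows in annotated exons, 5.03% of those of BGLU21 and 4.92% of those of BGLU22 occurred in the other gene, and 3.50% of those of PBP1 occurred in JAL31, its neighbour. None of the windows of the other 7 genes occurred in the same orientation in the exons of another gene. Matches to the opposite strand were not counted.

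**Figure D1:**
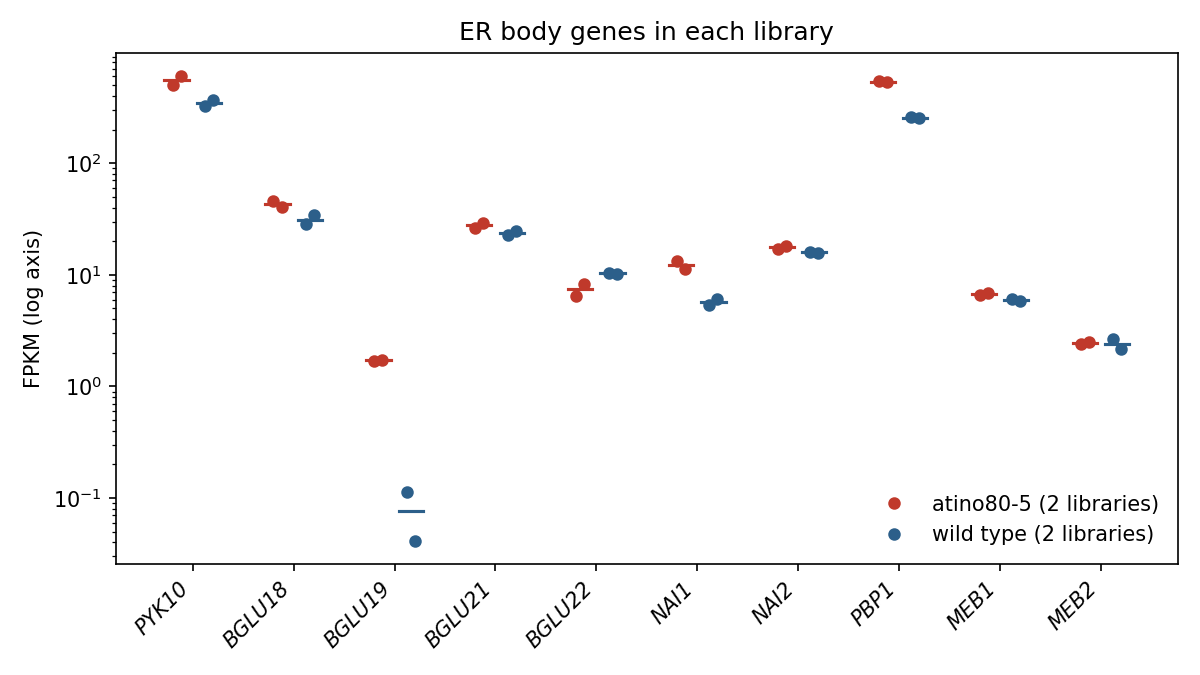
FPKM of the 10 ER body genes in each library on a log axis, with atino80-5 on the left and wild type on the right of each gene, points for libraries and bars for the mean of 2. NAI1, PBP1 and BGLU19 stand well apart between the genotypes, MEB2 overlaps, and PYK10 and PBP1 are the 2 most abundant.

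PYK10 and PBP1 were far above the other members in level. Over the 4 libraries they averaged 449 and 396 FPKM and ranked 141 and 170 among all 23174 genes. In atino80-5 PYK10 stood at 551 ± 71.6 FPKM and PBP1 at 537 ± 11.4 FPKM, and in wild type PYK10 stood at 348 ± 34.3 FPKM and PBP1 at 255 ± 4.65 FPKM (SD, n = 2). BGLU18, BGLU21 and NAI2 followed with means of 37.3, 25.7 and 16.7 FPKM. NAI1 and BGLU22 were close in mean level, at 8.98 and 8.83 FPKM, and changed places between the genotypes. In atino80-5 NAI1 averaged 12.3 ± 1.28 FPKM and BGLU22 7.39 ± 1.25 FPKM, whereas in wild type NAI1 averaged 5.69 ± 0.535 FPKM and BGLU22 10.3 ± 0.278 FPKM. MEB1, MEB2 and BGLU19 were the 3 lowest, with means of 6.35, 2.43 and 0.894 FPKM. The gene lengths behind the deposited FPKM hold introns for PYK10 (3305 bases, against 1806 of annotated exon) but not for PBP1 (1500 against 1504). Per kilobase of annotated exon PYK10 averaged 822 and PBP1 395 over the 4 libraries. The order of the members on that scale was the same except that BGLU22 came before NAI1.

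Between the genotypes, NAI1 and PBP1 rose in atino80-5 and no member fell. Among the tested members, 2 of 9 were called higher and 0 lower by limma at a Benjamini-Hochberg adjusted p under 0.05. Of all 17642 tested genes, 5.41% were called, 2.99% higher and 2.42% lower (528 and 427 genes, or 483 and 1120 with libraries scaled to total reads). At an unadjusted p under 0.05, 4 members were higher (PYK10, BGLU18, NAI1 and PBP1) and 1, BGLU22, was lower, against 14.8% of all tested genes higher and 12.2% lower. limma voom on recovered reads called the same 2 members higher and 0 lower, against 7.61% of all tested genes in either direction. The libraries of the 2 genotypes did not overlap for 8 of the 9 tested members, 7 higher and 1 lower. Such a gap was common, since 62.2% of all tested genes had it (33.4% higher and 28.8% lower). The median log2 difference over the 9 members was 0.23, beside 0.03 over all tested genes. In the authors' deposited table PYK10, BGLU19, NAI1 and PBP1, or 4 of the 10 members, were higher at a DESeq2 adjusted p under 0.05 and 0 were lower. Of the 20478 genes with an adjusted p there, 9.5% passed, 5.85% higher and 3.65% lower.

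**Figure D2:**
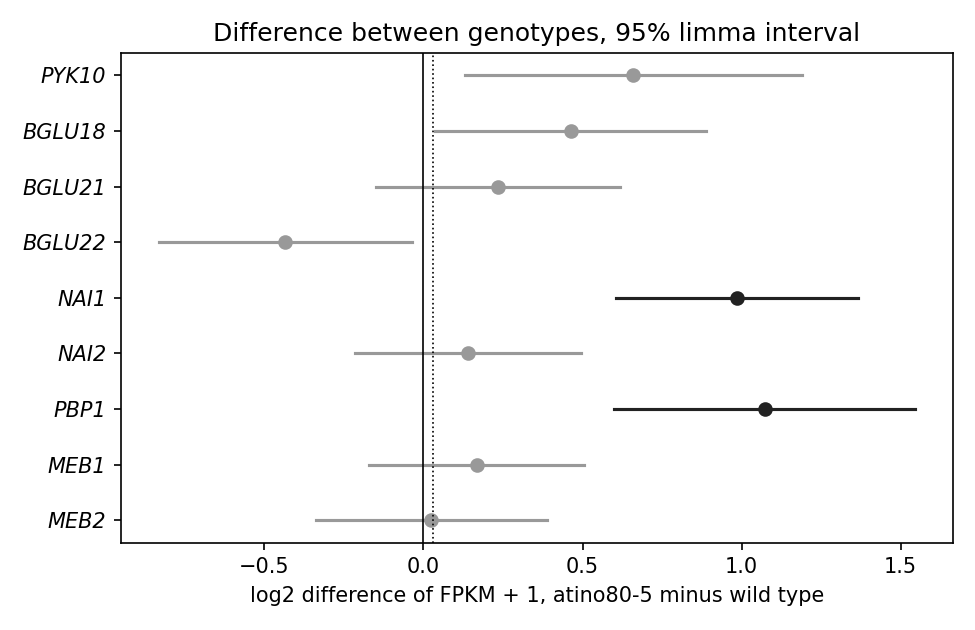
Log2 difference of FPKM + 1, atino80-5 minus wild type, for the 9 tested members, with points for the estimate and lines for limma's 95% interval. NAI1 and PBP1, in black, were called, the others in grey were not, and the dotted line marks the median of all tested genes at 0.03.

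NAI1, the transcription factor gene of the group, stood at 13.2 and 11.4 FPKM in the atino80-5 libraries, against 5.32 and 6.07 FPKM in the wild-type libraries. Those values rest on 288 and 303 reads in atino80-5 and on 148 and 228 reads in wild type. Both mutant libraries lay above both wild-type libraries, and the ratio of means was 2.15 (log2 difference 0.99, SE 0.16, limma adjusted p = 0.0224). Leaving out wild type replicate 1 gave an adjusted p of 0.166 and a log2 difference of 0.90, and leaving out wild type replicate 2 gave 0.0705 and 1.07, so that the call was lost in both cases. The authors' deposited table gave NAI1 a log2 fold change of 1.10 with a DESeq2 adjusted p of 0.00129. Its 3 closest relatives among the helix-loop-helix genes, AT2G22750 and AT2G22760 near it on chromosome 2 and AT4G37850 on chromosome 4, were nearly silent, none above 0.362 FPKM in any library. AT2G22760 was at 0.0576 and 0 FPKM in atino80-5 and at 0.362 and 0.101 FPKM in wild type.

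PYK10, the main enzyme of ER bodies in seedlings and roots, stood at 500.1 and 601 FPKM in atino80-5, against 323 and 372 FPKM in wild type. The lowest mutant value lay above the highest wild-type value, and the ratio of means was 1.58. The difference did not pass limma's test (log2 difference 0.66, 95% interval 0.13 to 1.19, adjusted p = 0.129). As each library was left out, the log2 difference of PYK10 ranged from 0.53 to 0.79. After quantile normalisation the log2 difference of PYK10 was 0.24. The authors' deposited table called PYK10 higher, with a log2 fold change of 0.66 and a DESeq2 adjusted p of 0.0196, and limma voom on the recovered reads gave an adjusted p of 0.0830. A gene on the other strand, AT3G09250, overlaps PYK10. It stood at 7.26 and 10.9 FPKM in atino80-5 and at 11.0 and 9.38 FPKM in wild type, a level far below that of PYK10.

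BGLU18, which releases abscisic acid from its glucose ester and is a main enzyme of wound-induced ER bodies, showed 46.0 and 40.8 FPKM in atino80-5, against 28.5 and 34.1 FPKM in wild type. The groups did not overlap, and the difference missed the threshold (log2 difference 0.46, 95% interval 0.04 to 0.89, limma adjusted p = 0.164). As each library was left out, the log2 difference of BGLU18 ranged from 0.34 to 0.59. Its log2 difference was 0.23 after quantile normalisation and 0.25 with total-read scaling. Its neighbour TSA1, a relative of NAI2, had 2.69 and 2.32 FPKM in atino80-5 and 1.55 and 2.27 FPKM in wild type, with a limma adjusted p of 0.345.

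The near-identical pair BGLU21 and BGLU22, which like PYK10 can hydrolyse the coumarin glucoside scopolin, had estimates of opposite sign, neither of them called. BGLU21 had 26.5 and 29.2 FPKM in atino80-5, against 22.5 and 24.6 FPKM in wild type (log2 difference 0.23, 95% interval -0.15 to 0.62, limma adjusted p = 0.371). The log2 difference of BGLU21 was 0.044 after quantile normalisation and 0.023 with total-read scaling. BGLU22 had 6.51 and 8.27 FPKM in atino80-5, against 10.5 and 10.1 FPKM in wild type (log2 difference -0.43, 95% interval -0.83 to -0.04, limma adjusted p = 0.162). As each library was left out, the log2 difference of BGLU22 ranged from -0.59 to -0.28. BGLU22 was called in no alternative that kept all 4 libraries. The ratio of BGLU21 to BGLU22 in FPKM was 4.07 and 3.54 in the atino80-5 libraries, against 2.15 and 2.44 in the wild-type libraries, with no overlap. The summed level of the pair was 33.0 and 37.5 FPKM in atino80-5 and 33.0 and 34.7 FPKM in wild type. How reads of the shared windows were assigned is not given in the sources used here.

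BGLU19 was nearly silent in wild type and present at a low level in atino80-5. It had 71 and 89 reads in the mutant libraries, against 6 and 3 reads in the wild-type libraries, or 1.69 and 1.74 FPKM in atino80-5 against 0.112 and 0.0415 FPKM in wild type. The ratio of scaled reads was 24.0, with an exact (Clopper-Pearson) 95% interval of 12.3 to 53.3 that covers counting error only. With a mean of 0.894 FPKM BGLU19 fell short of the minimum level, and with no filter on low values it was higher in atino80-5 (log2 difference 1.33, SE 0.10, limma adjusted p = 0.00952). On that scale of log2(FPKM + 1) the change of such a low gene is understated. The authors' deposited table gave a log2 fold change of 4.55 with a DESeq2 adjusted p of 3.52e-10. The oxygenase-family gene AT3G21360 overlaps BGLU19 on the other strand. It stood at 9.97 and 8.25 FPKM in atino80-5 and at 5.56 and 5.58 FPKM in wild type (limma adjusted p = 0.0774). Whether the counting used strand is not given in the sources used here, so reads from the overlap of the 2 genes cannot be told apart.

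Together the 5 β-glucosidase genes summed to 581 and 681 FPKM in the atino80-5 libraries, against 385 and 441 FPKM in the wild-type libraries. PYK10 made up 86.1% and 88.3% of that sum in atino80-5, against 84.0% and 84.4% in wild type. The sum thus followed PYK10, and the smaller shares of the other 4 enzymes moved it little.

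The genes for the body itself differed little. NAI2 had 17.1 and 18.0 FPKM in atino80-5, against 16.0 and 15.7 FPKM in wild type (log2 difference 0.14, 95% interval -0.22 to 0.49, limma adjusted p = 0.56). MEB1 had 6.64 and 6.91 FPKM in atino80-5, against 6.03 and 5.83 FPKM in wild type (log2 difference 0.17, 95% interval -0.17 to 0.50, limma adjusted p = 0.459). For both genes the mutant libraries lay just above the wild-type libraries. The non-coding RNA gene AT4G27852 overlaps MEB1 on the other strand and had 0.374 and 0.192 FPKM in atino80-5 and 0.257 and 0.409 FPKM in wild type. MEB2 had 2.41 and 2.50 FPKM in atino80-5 and 2.64 and 2.17 FPKM in wild type, so that its groups overlapped (log2 difference 0.02, 95% interval -0.34 to 0.39, limma adjusted p = 0.928). Scaled to total reads, which moved the median of all tested genes to -0.155 on the log2 scale, the log2 differences of NAI2, MEB1 and MEB2 were -0.068, -0.022 and -0.13, all above that median. MEB1 and MEB2 resemble iron transporters of the vacuole. Of 6 genes of that transporter family, 5 had values and 3 were tested, and none was called. VTL5, the most abundant, had 11.0 and 10.1 FPKM in atino80-5 and 12.7 and 9.51 FPKM in wild type, and VTL2 had 3.44 and 2.60 FPKM in atino80-5 and 2.36 and 2.47 FPKM in wild type.

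PBP1, the lectin partner of PYK10, showed the most even rise. It stood at 545 and 529 FPKM in atino80-5, against 258 and 251 FPKM in wild type, from 9548 and 11303 reads in atino80-5 and 5759 and 7569 reads in wild type. The libraries of each genotype lay close together and the genotypes far apart, with a ratio of means of 2.11 (log2 difference 1.07, SE 0.19, limma adjusted p = 0.0340). The adjusted p was 0.0511 with no filter on low values, 0.0959 after quantile normalisation, 0.321 when wild type replicate 1 was left out and 0.289 when replicate 2 was. The log2 differences under these 4 changes were 0.67 to 1.09. The authors' deposited table gave PBP1 a DESeq2 adjusted p of 1.95e-06.

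**Figure D3:**
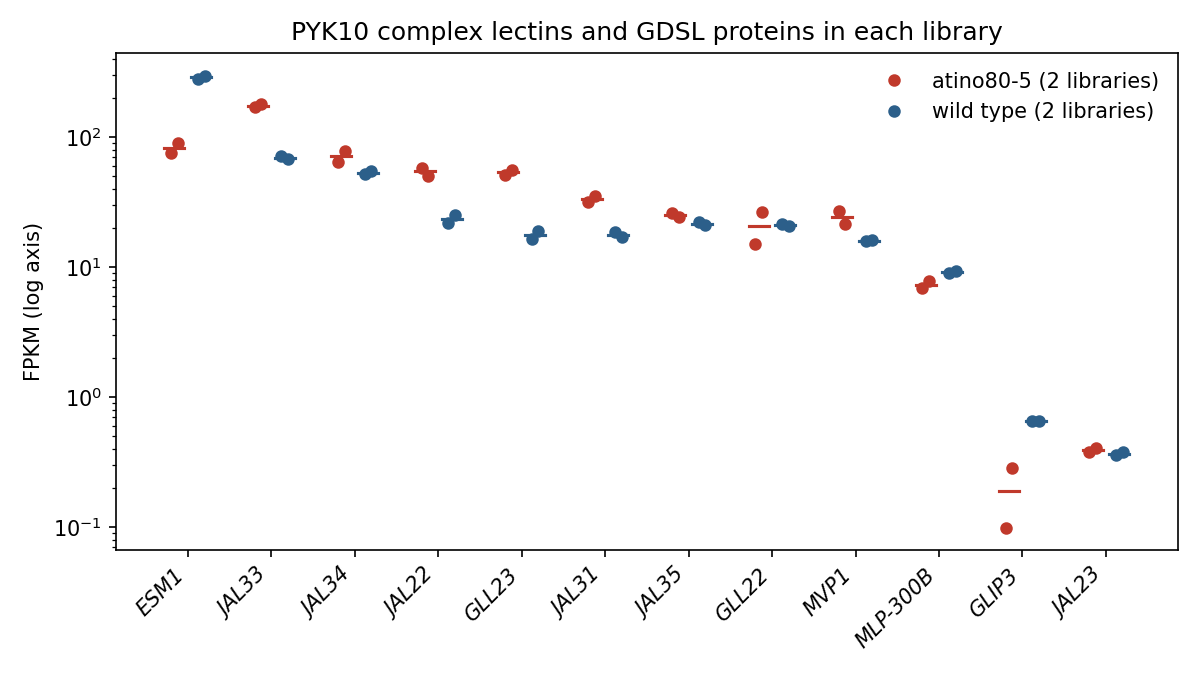
FPKM of 12 lectin and GDSL protein genes of the PYK10 complex list in each library on a log axis, with atino80-5 on the left and wild type on the right of each gene, points for libraries and bars for the mean of 2. JAL33, JAL22, GLL23 and JAL31 lie higher in atino80-5 and ESM1 lies lower.

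PBP1 is a member of the complex that forms around PYK10 in broken cells, together with other jacalin-related lectins and GDSL lipase-like proteins. Of 12 further genes listed for this complex and its relatives, 10 were tested, 4 rose, 1 fell and 5 did not pass. Of all tested genes, 2.99% were called higher and 2.42% lower. The median log2 difference was 0.49, beside 0.03 over all tested genes. This list, like the others, was chosen with earlier results of these data known, so these comparisons are not independent of the data. GLL23, which encodes a GDSL lipase-like protein, stood at 51.4 and 56.0 FPKM in atino80-5, against 16.6 and 19.0 FPKM in wild type (limma adjusted p = 0.00680). JAL33, a lectin gene in the cluster that holds PBP1 on chromosome 3, stood at 171 and 179 FPKM in atino80-5, against 71.3 and 68.1 FPKM in wild type (limma adjusted p = 0.0131). JAL22, a lectin gene on chromosome 2, stood at 58.5 and 50.8 FPKM in atino80-5, against 22.0 and 25.2 FPKM in wild type (limma adjusted p = 0.0180). The mutant libraries of these 3 genes lay far above those of wild type. JAL31, next to PBP1, had 31.5 and 35.3 FPKM in atino80-5, against 18.6 and 17.0 FPKM in wild type (limma adjusted p = 0.0347), and shared 3.59% of its exon windows with PBP1. GLL23 shared 3.41% of its windows with its neighbour GLL22, whose groups overlapped (limma adjusted p = 0.873).

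ESM1, a GDSL protein that steers glucosinolate breakdown away from nitriles, went the other way. It stood at 76.3 and 89.7 FPKM in atino80-5, against 279.9 and 299 FPKM in wild type, a ratio of 0.287 (log2 difference -1.79, SE 0.19, limma adjusted p = 0.00674). Not every lectin gene of the chromosome 3 cluster was called: JAL34, JAL35 and MLP-300B had log2 differences of 0.41, 0.22 and -0.29 with limma adjusted p-values of 0.208, 0.389 and 0.245. JAL34 and JAL35 overlap each other. MVP1, a GDSL protein gene of endomembrane trafficking, had 27.0 and 21.5 FPKM in atino80-5, against 15.8 and 16.1 FPKM in wild type (limma adjusted p = 0.111). As wild type replicate 1 and then replicate 2 was left out, JAL33 had an adjusted p of 0.0901 and 0.0998, JAL22 of 0.141 and 0.0571, and JAL31 of 0.207 and 0.266. JAL31 also missed with the length trend removed (0.0516), after quantile normalisation (0.0609) and with total-read scaling (0.0590).

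**Figure D4:**
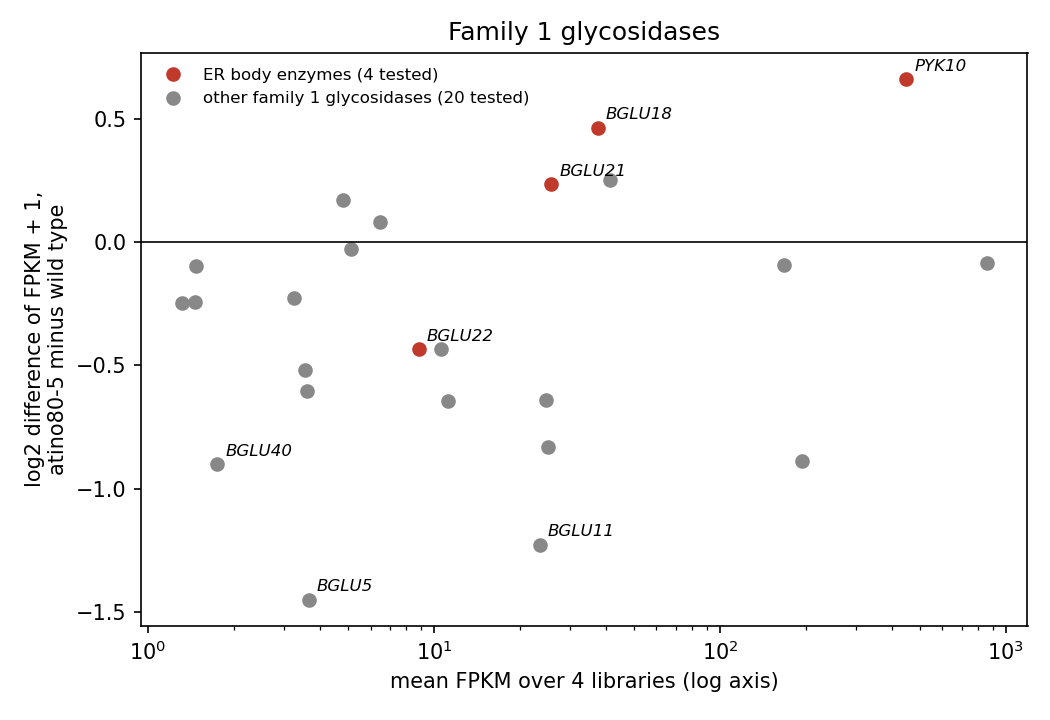
Log2 difference of FPKM + 1, atino80-5 minus wild type, against the mean FPKM of the 4 libraries on a log axis, for 4 tested ER body enzymes in red and 20 tested other family 1 glycosidases in grey. PYK10, BGLU18 and BGLU21 lie above 0, BGLU22 below, and the called genes BGLU5, BGLU11 and BGLU40 are lowest in difference at -1.45, -1.23 and -0.90.

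The ER body enzymes belong to glycoside hydrolase family 1, which in Arabidopsis also holds the myrosinases and many other β-glucosidases. Of 42 other genes of the family, 34 had values and 20 were tested, with 0 higher, 3 lower and 17 not called. Over all tested genes, 2.99% were called higher and 2.42% lower. The authors' deposited table called 0 higher and 6 lower, beside 5.85% and 3.65% of its genes. The 42 include 5 genes that also stand in lists named further on, among them the myrosinases TGG1 and TGG2. The median log2 difference of the tested genes of the family was -0.34, beside 0.03 over all tested genes, and 17 of the 20 were negative. In 14 of the 20 every atino80-5 value was under every wild-type value, which was so for 28.8% of all tested genes. The 14 include BGLU34, BGLU35, BGLU9 and BGLU10, which shared 31.5%, 30.9%, 11.0% and 12.1% of their exon windows with other family genes. These counts are thus not of fully separate genes. BGLU5 stood at 1.53 and 1.44 FPKM in atino80-5, against 5.72 and 5.89 FPKM in wild type (limma adjusted p = 0.00523). BGLU11 stood at 13.3 and 13.9 FPKM in atino80-5, against 34.0 and 32.4 FPKM in wild type (limma adjusted p = 0.0104, and 0.0607 without wild type replicate 1). BGLU40 stood at 0.767 and 1.08 FPKM in atino80-5, against 2.72 and 2.44 FPKM in wild type (limma adjusted p = 0.0309, and 0.145 or 0.0650 when either wild-type library was dropped). BGLU40 averaged under 1 FPKM in atino80-5 and reached the minimum level only through wild type, the group where it is high, so its call is no support for a lower family. These differences between family members and ER body enzymes were not tested against each other. BGLU24 and BGLU25 group with the ER body enzymes in sequence. BGLU25, which overlaps AT3G03650, had 5.00 and 5.32 FPKM in atino80-5 and 4.46 and 4.49 FPKM in wild type, and BGLU24 reached no more than 0.0836 FPKM in any library.

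Genes that act on the substrates of these enzymes moved in part. PYK10 can cleave indole glucosinolates, and of 9 genes for indole glucosinolate synthesis and breakdown 3 rose, none fell and 6 did not pass. Of all tested genes, 2.99% were called higher and 2.42% lower. The authors' deposited table called 3 higher and 1 lower, beside 5.85% and 3.65% of its genes. The lower one was the myrosinase gene TGG2, which had 106 and 170 FPKM in atino80-5, against 255 and 244 FPKM in wild type (limma adjusted p = 0.105). CYP81F2, which modifies the indole ring, stood at 7.89 and 6.95 FPKM in atino80-5, against 1.67 and 1.95 FPKM in wild type (limma adjusted p = 0.00523). MYB51, a regulator of the pathway, stood at 18.1 and 16.8 FPKM in atino80-5, against 6.33 and 6.95 FPKM in wild type (limma adjusted p = 0.00870). CYP79B3, an enzyme of its first step, stood at 20.6 and 22.8 FPKM in atino80-5, against 9.39 and 9.86 FPKM in wild type (limma adjusted p = 0.0152, and 0.103 or 0.0680 when either wild-type library was dropped). Of the 5 scopolin and coumarin genes 4 were tested and 1 fell, beside 2.42% of all tested genes. It was CYP82C4, an enzyme of coumarin synthesis, with 1.30 and 1.97 FPKM in atino80-5 against 8.13 and 8.74 FPKM in wild type (limma adjusted p = 0.00523). CYP82C4 shares 8.50% of its exon windows with related genes. The authors' deposited table called 3 of the 5 lower, beside 3.65% of its genes. They were CYP82C4, ABCG37 (DESeq2 adjusted p = 0.0261) and AT3G12900 (DESeq2 adjusted p = 0.0211). ABCG37, a coumarin exporter gene, had 2.15 and 4.54 FPKM in atino80-5, against 6.36 and 6.76 FPKM in wild type (limma adjusted p = 0.117). AT3G12900 was below the minimum level, with 4 and 3 reads in atino80-5, against 22 and 45 reads in wild type.

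Of 9 genes for making, conjugating and breaking down abscisic acid, 7 were tested and 1 fell, beside 2.42% of all tested genes. This was UGT71B6, which makes the glucose ester that BGLU18 cleaves. It had 1.03 and 0.894 FPKM in atino80-5, against 2.12 and 2.84 FPKM in wild type (limma adjusted p = 0.0471). In 8 of its 13 alternatives UGT71B6 missed the threshold, with adjusted p-values from 0.0501 to 0.237 over those 8, and it overlaps AT3G21781. It averaged 0.964 FPKM in atino80-5 and reached the minimum level only through wild type, the group where it is high. The authors' deposited table called none of the 9. Among 4 jasmonate regulators, which act in wound-induced ER body formation, MYC2 rose, with 87.9 and 65.1 FPKM in atino80-5 against 21.3 and 22.9 FPKM in wild type (limma adjusted p = 0.00847), and it overlaps AT1G32630. The other 3 regulators did not pass, and 2.99% of all tested genes were called higher. None of 6 tested ER chaperone and retention receptor genes was called, against 5.41% of all tested genes. Among them CNX1 had 102 and 92.3 FPKM in atino80-5 and 95.9 and 96.2 FPKM in wild type. BIP1, which shares 22.9% of its exon windows with BIP2, had 94.6 and 81.9 FPKM in atino80-5 and 79.6 and 89.0 FPKM in wild type. ERD2, which overlaps AT1G29320, had 5.59 and 4.29 FPKM in atino80-5, against 2.89 and 3.22 FPKM in wild type (limma adjusted p = 0.114).

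PYK10 and PBP1 are known from roots, so organ markers were measured beside them. Of 12 root markers 0 were called by limma, and their summed level was 120.5 and 116 FPKM in atino80-5, against 128 and 138 FPKM in wild type, with no marker at 0 in any library. In 4 of the 12 every atino80-5 value was under every wild-type value, beside 28.8% of all tested genes. The most abundant were TIP2-3, with 53.2 and 34.0 FPKM in atino80-5 and 45.2 and 52.5 FPKM in wild type, and CASP1, which overlaps AT2G36090, with 25.2 and 32.6 FPKM in atino80-5 and 31.0 and 32.9 FPKM in wild type. Of 8 shoot markers 0 were called by limma, and 6 lay higher in atino80-5 without overlap, beside 33.4% of all tested genes. The authors' deposited table called 2 of the 8 higher, beside 5.85% of its genes. The 8 had summed levels of 51946 and 65560 FPKM in atino80-5 and 56934 and 48338 FPKM in wild type. RBCS1A had 20628 and 36160 FPKM in atino80-5 and 34644 and 24951 FPKM in wild type, and CAB1, which overlaps AT1G29940 and shares 17.0% of its exon windows with other genes, had 16440 and 14519 FPKM in atino80-5 and 10087 and 11619 FPKM in wild type. The root sum was thus slightly lower in atino80-5 while PYK10 and PBP1 stood higher there, and its part in their levels was not tested.

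The 5 genes whose pattern over the 4 libraries was closest to that of PYK10, by Euclidean distance of centred log2(FPKM + 1) among 1658 other genes averaging 50 FPKM or more, were XTH9, PG2, FLA9, LEA14 and FBA1. Their distances were 0.112 to 0.168, while PBP1 ranked 373 in that order and JAL34, the nearest lectin gene, ranked 38. XTH9, which encodes an enzyme of the cell wall, had 100.2 and 112 FPKM in atino80-5, against 64.3 and 68.0 FPKM in wild type. With 4 libraries such likeness describes these samples only.

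The bases just before the annotated start are shown for NAI1 and PBP1, the 2 called members, and for BGLU19, which was nearly silent in wild type. Each is 250 bases long, from RefSeq's TAIR10.1 genome, 5′ to 3′ on the gene's strand, with capitals for each match to CANNTG, the E-box letters that helix-loop-helix proteins can bind, which read the same on both strands.
NAI1: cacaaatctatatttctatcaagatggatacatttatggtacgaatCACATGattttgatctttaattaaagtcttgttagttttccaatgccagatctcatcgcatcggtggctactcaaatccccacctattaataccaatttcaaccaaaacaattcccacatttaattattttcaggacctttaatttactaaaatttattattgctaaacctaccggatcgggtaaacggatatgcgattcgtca
PBP1: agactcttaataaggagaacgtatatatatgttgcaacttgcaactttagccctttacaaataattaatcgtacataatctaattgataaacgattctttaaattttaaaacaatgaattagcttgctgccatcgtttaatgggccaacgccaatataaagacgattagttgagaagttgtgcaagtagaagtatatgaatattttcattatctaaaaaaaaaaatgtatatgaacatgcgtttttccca
BGLU19: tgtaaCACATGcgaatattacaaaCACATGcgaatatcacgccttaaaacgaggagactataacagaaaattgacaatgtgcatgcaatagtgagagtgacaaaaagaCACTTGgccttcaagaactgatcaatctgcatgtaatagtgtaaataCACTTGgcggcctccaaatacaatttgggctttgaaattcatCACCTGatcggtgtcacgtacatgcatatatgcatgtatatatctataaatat
The windows lie at chr2:9684312-9684561 on the plus strand for NAI1, chr3:5579040-5579289 on the plus strand for PBP1 and chr3:7527678-7527927 on the minus strand for BGLU19, where a short uncharacterised gene, AT3G21371, is also annotated. CANNTG occurred 5 times before BGLU19, once before NAI1 and not before PBP1 or PYK10. In all, 6 of the 10 members had it, against 55.3% of 27443 protein-coding genes. The G-box CACGTG, which is one form of CANNTG, occurred before 1 of the 10 members, NAI2, against 6.49% of those genes. The matches are letters in a window and were not tested as binding sites.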

How the data were processed

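Per the submitters' processing notes, the authors used cutadapt, HISAT2, SAMtools, featureCounts and DESeq2 with TAIR10. The authors deposited FPKM per library, scaled by size factors, and DESeq2 results, namely a mean normalised signal, log2 fold changes with standard errors, a test score, p-values and adjusted p-values. The filters, annotation release and strand setting they chose are not given in the labels or files. Whole reads were recovered from FPKM and the mean normalised signal for 100% of 92696 values within a tolerance of 0.01.

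The 17642 genes averaging 1 FPKM or more entered limma (version 3.58.1, R 4.3.3) as log2(FPKM + 1). The model held genotype alone, the variance prior followed the mean level, and p-values were adjusted by Benjamini-Hochberg over all tested genes. This scale understates changes of low genes. Ratios are of mean FPKM. For single genes, 2 against 2 libraries leave 0.33 as the smallest two-sided p of an exact permutation test. limma voom on the recovered reads, an alternative, called 1342 genes (7.61%). Sequence comparisons used Biopython 1.88.

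The members and lists were chosen with earlier results of these data known. Named genes are all members and, per list, up to 4 called genes by size of difference or the 2 most abundant. Genes that overlap a member or a named list gene, and neighbours of a member from the same family, are named beside it. TGG2, ABCG37, AT3G12900, JAL34, JAL35, MLP-300B, MVP1, GLL22, BGLU24, BGLU25 and the relatives of NAI1 were named after their values were seen. So were MYB34, CYP79B2, CYP83B1 and ERD2. Symbols follow the RefSeq TAIR10.1 table. No locus was left out of a list for its values.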

Additional observations from a re-analysis of the deposited data

How the results depend on the processing

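The count of members called higher was 2 as reported and lay within 1.5 times that in 11 of 14 alternatives. It was 1 (NAI1) after quantile normalisation, and from 0 to 3 when each library was left out in turn, with 0 without wild type replicate 1 or replicate 2. Without a minimum level the 2 were NAI1 and BGLU19. The count called lower was 0, and from 0 to 1 with each library left out. Over all genes, 955 calls became 443 and 587 without wild type replicate 1 or replicate 2, 1561 and 6896 without atino80-5 replicate 1 or replicate 2, and 1603 with total-read scaling. With 3 libraries, the lone library of a genotype is assumed to vary like the other 2. The cause of these shifts was not tested.

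The replicate number as a block called the same 2 members (adjusted p = 0.00532 for NAI1 and 0.0271 for PBP1) and 1985 genes in all. The labels do not say that the number pairs libraries, and the correlation of replicate 1 minus replicate 2 between the genotypes was -0.034 over tested genes.

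Uncalled genes whose log2 difference changed sign were NAI2 (-0.068), MEB1 (-0.022), MEB2 (-0.13), CNX1 (-0.21) and BIP1 (-0.15) with total-read scaling, and CNX1 (-0.28), BIP1 (-0.25) and CAB1 (-0.093) after quantile normalisation. With each library left out they ranged from -0.074 to 0.12 for MEB2, -0.058 to 0.082 for CNX1, -0.040 to 0.17 for BIP1, -0.25 to 0.14 for VTL5, -0.51 to 0.12 for TIP2-3, -0.33 to 0.030 for CASP1 and -0.51 to 0.30 for RBCS1A. The low depth of BGLU19 in wild type (9 reads) limits how well its ratio is known.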
